A study of Mus musculus with 42 samples.

Results

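The genes described here were 10 transcription factors and response genes of the AP-1 and immediate early type, namely Fos, Fosb, Fosl1, Fosl2, Jun, Junb, Jund, Egr1, Atf3 and Ier3. The rule names the genes and sets no threshold on a measured value, but it was written with earlier results of these data known. The genes were matched by Ensembl identifier through the GENCODE annotation. All 10 were among the 14296 genes of the files. Expression was measured by stranded sequencing of poly-A RNA from W9.5 cells, a mouse embryonic stem cell (ESC) line labelled with the strain background 129X1/SvJ. The cells were low in passage number and differentiated spontaneously into embryoid bodies after withdrawal of LIF, the cytokine that holds ESCs in the undifferentiated state. From the induction of differentiation at 0 h until 120 h, cultures were harvested every 6 h, which gave 21 time points with duplicate libraries, lettered A and B, and 42 libraries in all. All 42 libraries share the single line, no genotype or drug differs between them, and the labels separate the groups by time point alone. The only undifferentiated reference is 0 h. Later times differ from it also in the withdrawal of LIF and the growth as embryoid bodies, which cannot be told apart from time.

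AP-1 is a dimer of basic leucine zipper (bZIP) proteins that binds the sequence TGACTCA and close relatives of it. Jun proteins can pair with each other or with Fos proteins, whereas Fos proteins need a partner such as a Jun protein. Many genes of both families, and Egr1, are immediate early genes, whose transcription starts within minutes of a growth factor, serum, stress or mechanical stimulus because the factors that switch them on are already present in the cell, and whose mRNA is short-lived. In ESCs the same MAP kinase signals that drive these genes also take part in the exit from the undifferentiated state.

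The counted reads per library, recovered from the deposited values, ranged from 10120972 (30 h, replicate B) to 51652434, with a median of 29692082. A level is given as log2 CPM, the log2 of counts scaled to the library size (CPM), with the normalization made before deposit, and a difference of 1 on this scale is a doubling. Pluripotency markers were present throughout, since Pou5f1, Nanog, Sox2, Zfp42, Esrrb and Dppa5a were detected in all 42 libraries, with a lowest level of 5.09 log2 CPM (Esrrb). Their summed level was 4.42e+03 CPM in replicate A and 4.86e+03 CPM in replicate B at 0 h, and 2.03e+03 CPM in both at 120 h. The label of embryonic stem cells is carried by every library, including those of 120 h. The duplicates are described as biological. The p-values measure the spread between 2 libraries a time point, pooled over the course.

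All 10 genes changed over the course as a whole (limma F test, adjusted p from 3.53e-22 for Fosl2 to 3.2e-07 for Jund), as did 74.6% of all genes tested. In bulk RNA of this kind, a change in the number of cells that carry a transcript cannot be told apart from a change in its amount per cell. What set the genes apart from one another was the time at which each was high. A first high point came at 6 h and a later one at 108 h, though Jund and Ier3 were at their lowest at 6 h. Harvests were 6 h apart, so a higher level between harvests, as before 6 h, would not have been seen. Of the 10 genes, 7 had their highest mean of the course at 108 h (Fos, Fosb, Fosl2, Jun, Junb, Egr1 and Atf3). This held in both replicates except for Jun, whose replicate A was highest at 114 h. Fosl1 was highest at 6 h in both replicates. By the mean, Ier3 was highest at 84 h and Jund at 102 h, but replicate A of Ier3 and replicate B of Jund were highest at 96 h.

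**Figure D1:**
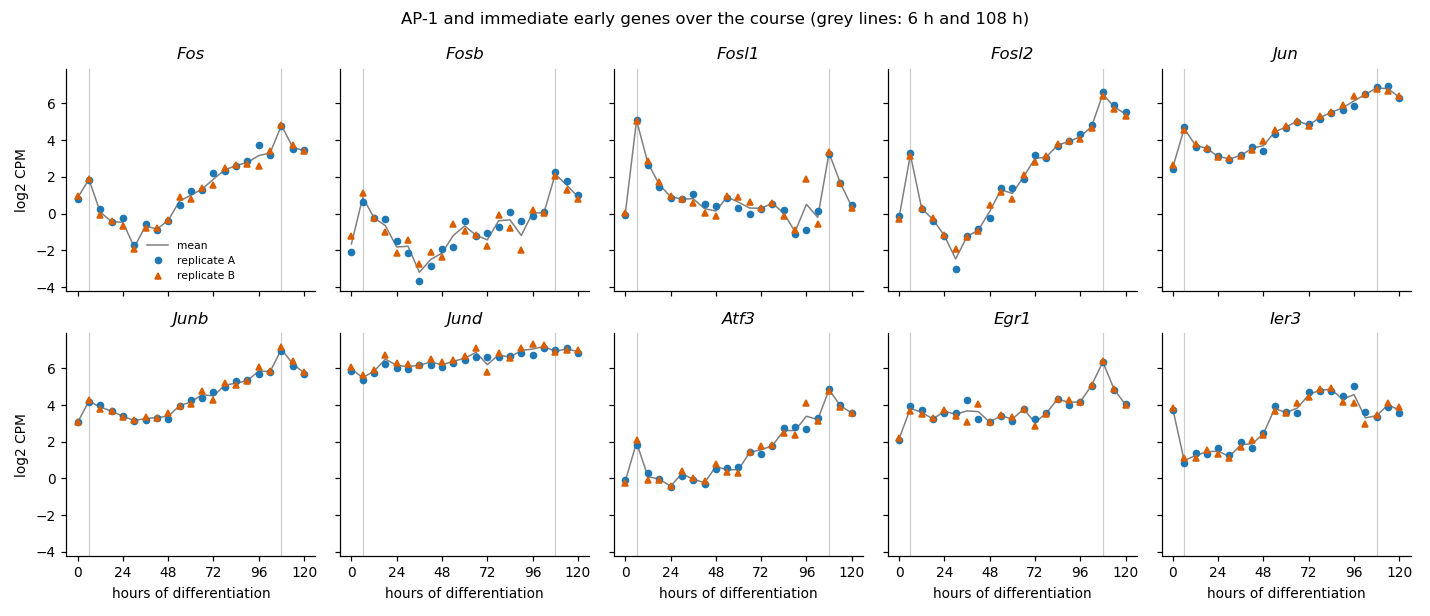
Level of each of the 10 genes in log2 CPM (y axis) against hours of differentiation (x axis), with both replicates at each of the 21 time points and vertical grey lines at 6 h and 108 h. Fosl1 reaches 5.10 and 5.07 at 6 h and 3.27 and 3.34 at 108 h, whereas Fos, Fosb, Fosl2, Junb, Egr1 and Atf3 are highest at 108 h in both replicates and Ier3 is lowest at 6 h.

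The sequences just upstream of the start sites of 5 of these genes are shown because cyclic AMP response elements (CRE) and AP-1 sites are the elements through which CREB, ATF and AP-1 factors are known to act on this family. Promoter sequence was taken from RefSeq (GRCm38.p6) for 8 of the 10 genes, each with a single listed start, and none was used for Fosl1 or Egr1. The 150 bases before the start are given in the sense of the gene, for Fos chr12:85473740-85473889 (plus strand), for Fosb chr7:19310046-19310195 (minus), for Junb chr8:84978749-84978898 (minus), for Atf3 chr1:191183334-191183483 (minus) and for Jun chr4:95052223-95052372 (minus). Capitals mark the CRE core TGACG, read as CGTCA on the other strand, in the first 4 sequences, and the AP-1 variant TGACATCA in the last.
Fos: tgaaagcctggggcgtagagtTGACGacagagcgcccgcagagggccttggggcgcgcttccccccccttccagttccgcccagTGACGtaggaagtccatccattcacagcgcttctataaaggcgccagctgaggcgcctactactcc
Fosb: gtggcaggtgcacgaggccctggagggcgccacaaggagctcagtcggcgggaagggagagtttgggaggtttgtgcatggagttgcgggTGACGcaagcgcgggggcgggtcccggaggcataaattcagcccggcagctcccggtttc
Junb: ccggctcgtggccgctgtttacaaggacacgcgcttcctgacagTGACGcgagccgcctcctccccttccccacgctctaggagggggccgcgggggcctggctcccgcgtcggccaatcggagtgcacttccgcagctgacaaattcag
Atf3: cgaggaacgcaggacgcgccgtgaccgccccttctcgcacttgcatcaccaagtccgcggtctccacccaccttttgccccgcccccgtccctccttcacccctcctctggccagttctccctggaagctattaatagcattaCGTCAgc
Jun: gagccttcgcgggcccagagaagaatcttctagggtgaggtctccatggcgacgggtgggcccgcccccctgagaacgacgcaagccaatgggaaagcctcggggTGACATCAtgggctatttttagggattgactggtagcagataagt

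Over the 250 bases before the start, searched on both strands, the CRE core TGACG was present in 4 of the 8 genes with a sequence (Fos, Fosb, Junb and Atf3) and in 17.8% of 32851 RefSeq promoters. Among these promoters a gene counts once for each of its starts. Jun held the variant TGACATCA, found in 2.93% of promoters. The full element TGACGTCA, which contains the core, was in 0 of the 8 against 1.55% of promoters, and the AP-1 site TGACTCA was in 0 of the 8 against 4.46%. The EGR site GCGGGGGCG was in Fosb and Fosl2 and in 2.57% of promoters. The CArG box CCWWWWWWGG, where W is A or T, was in 0 of the 8 against 1.47% of promoters. The TATA box TATAAA was in Fos alone of the 8 and in 12.4% of promoters. Such a match describes letters in this window and shows no binding. The RefSeq start differed from the first base of the GENCODE gene by 34706 bp for Atf3, by 671 bp for Fosl2 and, lying upstream of it, by -1210 bp for Jund.

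The first comparison asks how the genes changed over the first 6 h of differentiation. Of the 10 genes, 7 passed an adjusted p of 0.0001 (limma with Benjamini-Hochberg adjustment, used throughout), 6 of them higher at 6 h than at 0 h and 1 lower. Among all genes 26.3% were called in this comparison, 11.8% higher and 14.5% lower. The median change of the 10 genes was 1.88 on the log2 scale and that of all genes -0.05. The 7 calls were Fosl1, Fosl2, Jun, Junb, Egr1 and Atf3, which rose, and Ier3, which fell.

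Fosl1 (ENSMUSG00000024912.5, chr19:5447547-5455946, GRCm38, plus strand) encodes a Fos protein without the strong activation domain of Fos itself. Its level was -0.07 and 0.02 log2 CPM at 0 h (22 and 24 reads) and 5.10 and 5.07 at 6 h (945 and 574 reads), then 2.63 and 2.87 at 12 h, 1.47 and 1.72 at 18 h and 0.87 and 0.97 at 24 h. Both 6 h libraries stood above every other library of the course for this gene. From 0 h to 6 h it rose by 5.11 ± 0.46 (SE) on the log2 scale, or 34.5-fold (adjusted p = 5.94e-10), the largest change of the 10 genes. From 6 h to 24 h it fell by 4.17 ± 0.46 (adjusted p = 4.7e-08), and at 24 h both libraries were still above both 0 h libraries.

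Fosl2 (ENSMUSG00000029135.9, chr5:32135801-32157842, plus strand), a close relative of Fosl1, was at -0.14 and -0.31 log2 CPM at 0 h, 3.30 and 3.12 at 6 h, 0.23 and 0.32 at 12 h and -1.21 and -1.18 at 24 h. It rose 10.8-fold by 6 h (3.43 ± 0.25 log2, adjusted p = 1.09e-11) and had fallen by 2.93 ± 0.25 within the next 6 h (adjusted p = 1.88e-09). By 24 h both libraries were below both 0 h libraries, unlike those of Fosl1. At 30 h only 3 and 2 reads of Fosl2 were counted, so that its low point is set by single reads.

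Fos (ENSMUSG00000021250.7, chr12:85473890-85477273, plus strand), the founding member, was at 0.78 and 0.95 log2 CPM at 0 h and 1.85 and 1.87 at 6 h. Both 6 h libraries were above both 0 h libraries, but the difference of 1.0 ± 0.27 had an adjusted p of 0.00223 and was not called. With quantile normalization the difference was 1.44 and was called (adjusted p = 4.79e-05). Fos then fell by 1.78 ± 0.27 from 6 h to 12 h (adjusted p = 1.4e-05). It was at -1.73 and -1.93 at 30 h, the lowest of the course, where 8 and 2 reads were counted.

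Fosb (ENSMUSG00000003545.2, chr7:19302696-19310051, minus strand), which like Fos has an activation domain, was the least abundant of the 10 per exon length at 0 h, 6 h and 108 h. Its level was -2.10 and -1.20 log2 CPM at 0 h (5 and 10 reads) and 0.63 and 1.13 at 6 h (42 and 37 reads). The difference of 2.53 ± 0.50 gave an adjusted p of 0.000115, just outside the threshold, and its SE was the largest of the 10. Few reads stand behind each of these values, and the call depended on the scale: on log2(CPM + 1) the adjusted p was 4.53e-06.

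In the Jun family, Jun (ENSMUSG00000052684.3, chr4:95049034-95052222, minus strand), the main activating partner of Fos, was at 2.43 and 2.63 log2 CPM at 0 h, 4.73 and 4.54 at 6 h, 3.64 and 3.80 at 12 h and 3.12 and 3.11 at 24 h. It rose 4.28-fold by 6 h (2.10 ± 0.15, adjusted p = 1.16e-11) and fell by 1.52 ± 0.15 to 24 h (adjusted p = 8.87e-09). All later Jun values of the course stayed above both 0 h libraries. Junb (ENSMUSG00000052837.5, chr8:84974484-84978718, minus strand), which can oppose Jun at some targets, was at 3.05 and 3.06 at 0 h and 4.17 and 4.26 at 6 h, a rise of 1.16 ± 0.15 (adjusted p = 1.68e-07). Jund (ENSMUSG00000071076.5, chr8:70698949-70700616, plus strand), which many cell types express steadily, was at 5.88 and 6.05 at 0 h and 5.34 and 5.65 at 6 h, its lowest point, with a difference of -0.47 ± 0.21 that was not called (adjusted p = 0.0592).

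Atf3 (ENSMUSG00000026628.8, chr1:191170296-191218039, minus strand), a stress-induced bZIP factor that often represses, was at -0.07 and -0.23 log2 CPM at 0 h, 1.81 and 2.12 at 6 h and 0.31 and -0.10 at 12 h. It rose by 2.12 ± 0.27 (adjusted p = 2.54e-07) and fell by 1.86 ± 0.27 in the next 6 h (adjusted p = 1.08e-05), and at 12 h its pair overlapped that of 0 h. With voom weights the rise to 6 h kept its size (2.09) but had an adjusted p of 0.000808.

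Egr1 (ENSMUSG00000038418.7, chr18:34859823-34864984, plus strand) encodes a zinc finger factor that binds GC-rich sites and is activated through serum response elements. It was at 2.10 and 2.20 log2 CPM at 0 h and 3.96 and 3.69 at 6 h, a rise of 1.67 ± 0.23 (adjusted p = 7.13e-07). The level was 3.56 and 3.75 at 24 h, and the difference of -0.16 ± 0.23 from 6 h was not called (adjusted p = 0.617). Egr1 was in this way unlike the Fos and Jun genes called at 6 h, each of which was lower at 24 h by the test, although the difference between the genes was not itself tested.

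Ier3 (ENSMUSG00000003541.6, chr17:35821684-35822923, plus strand), an early response gene tied to cell survival, moved the other way. It was at 3.73 and 3.84 log2 CPM at 0 h and 0.85 and 1.09 at 6 h, and fell by 2.81 ± 0.24, or 7.03-fold (adjusted p = 1.45e-10). Its 6 h libraries were the lowest of the course for the gene, and it was still at 1.65 and 1.33 at 24 h and 2.49 and 2.36 at 48 h.

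From 6 h to 24 h, 6 of the 10 genes were called, all lower (Fos, Fosl1, Fosl2, Jun, Junb and Atf3), against 11.4% of all genes in either direction, 5.64% higher and 5.76% lower. The median change was -1.92 for the 10 genes and -0.01 for all genes. This comparison shares its 6 h libraries with that of 0 h and 6 h, and a high value at 6 h enters both. The fall of Junb, 0.83 ± 0.15 on the log2 scale (adjusted p = 4.5e-05), was lost whenever 1 of the 4 libraries was left out, with adjusted p from 0.000527 to 0.0016. With voom weights the falls of Fos (adjusted p = 0.000125), Junb (0.000309) and Atf3 (0.000331) were also lost, while Fosb was called (9.5e-05).

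Between 0 h and 48 h, Jun and Ier3 were called, 1 higher and 1 lower, where 30.4% of all genes were called, 14.8% higher and 15.6% lower. Jun was at 3.43 and 3.97 log2 CPM, 1.17 ± 0.15 above 0 h (adjusted p = 2.63e-07). Ier3 was lower by 1.36 ± 0.24 (adjusted p = 1.81e-05), a call that was lost without any 1 of the 4 libraries (adjusted p from 0.000234 to 0.00066) and with quantile normalization (0.000932), under which Egr1 was called instead (1.25, adjusted p = 1.26e-05). Fos, at -0.42 and -0.33, was below both of its 0 h libraries (-1.23 ± 0.27, adjusted p = 0.000246, not called), and Fosl2, at -0.23 and 0.45, overlapped its own.

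**Figure D2:**
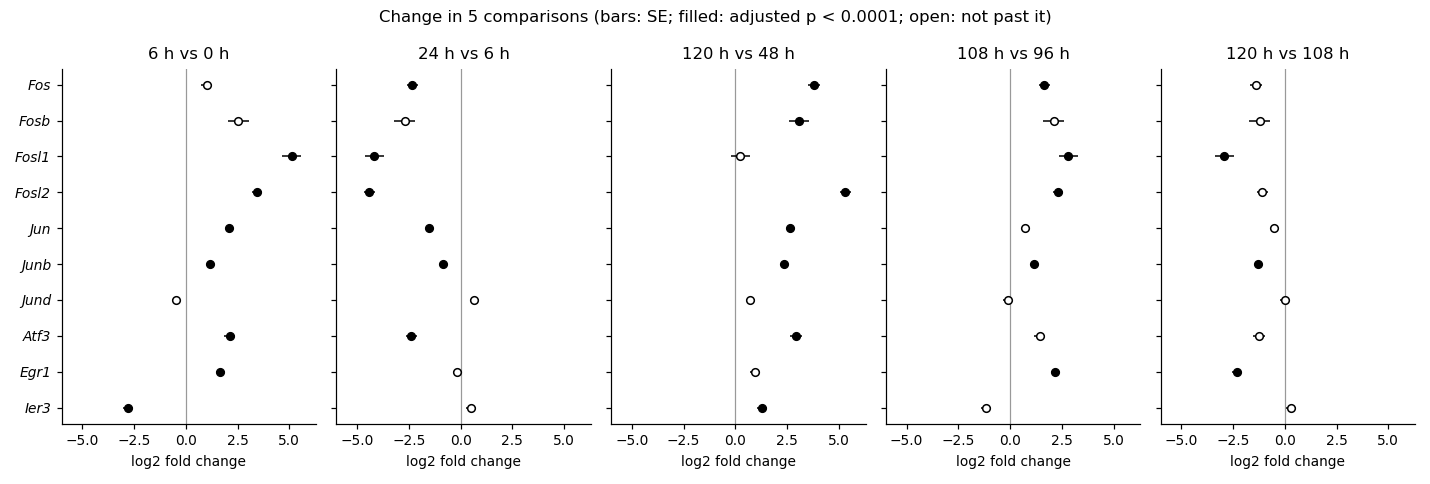
Change of each of the 10 genes (log2 fold change on the x axis, later minus earlier) in 5 comparisons of time points, with horizontal bars for the SE of the limma fit and 2 libraries a time point. Filled circles passed an adjusted p of 0.0001: 7 genes from 0 h to 6 h, 6 from 6 h to 24 h, 7 from 48 h to 120 h, 5 from 96 h to 108 h and 3 from 108 h to 120 h.

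A slow ascent followed after 48 h. Between 48 h and 120 h, 7 of the 10 genes were higher and none lower (Fos, Fosb, Fosl2, Jun, Junb, Atf3 and Ier3), where 25.2% of all genes were called in either direction, 14.2% higher and 11% lower, and the median change was 2.50 for the 10 genes and 0.00 for all genes. Fosl2 showed the widest range of the 10 genes over the course, 8.98 on the log2 scale with a pooled SD of 0.25 between duplicates. Its level was 1.42 and 1.17 log2 CPM at 54 h, 3.21 and 2.79 at 72 h, 4.31 and 4.06 at 96 h and 5.54 and 5.32 at 120 h. From 48 h to 120 h it rose 39.8-fold (5.32 ± 0.25, adjusted p = 7.12e-16), and from 0 h to 120 h 50.1-fold.

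Fos was at 2.23 and 1.54 log2 CPM at 72 h, 3.75 and 2.58 at 96 h and 3.44 and 3.41 at 120 h, a rise of 3.80 ± 0.27 since 48 h (adjusted p = 3.1e-12). Jun was at 4.89 and 4.77 at 72 h and 6.28 and 6.39 at 120 h (rise 2.64 ± 0.15, adjusted p = 7.16e-14), and Junb at 4.72 and 4.29 and then 5.67 and 5.82 (rise 2.36 ± 0.15, adjusted p = 2.33e-13). For each of these genes both 120 h libraries were above both 48 h libraries. Atf3 rose by 2.93 ± 0.27 (adjusted p = 8.35e-10), from 0.50 and 0.78 to 3.59 and 3.55. The rises of Fosb (3.07 ± 0.50, adjusted p = 9.67e-06) and Ier3 (1.30 ± 0.24, adjusted p = 3.73e-05) were lost without any 1 of the 4 libraries, with adjusted p of 0.000111 to 0.000503 for Fosb and 0.000193 to 0.00208 for Ier3, and with quantile normalization (2e-04 and 0.00302). The call of Ier3 was also lost with voom weights (0.00018) and with adjustment over all 27 contrasts together (0.000141).

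Fosl1 took no part in this ascent by the test. It was at 0.43 and -0.14 log2 CPM at 48 h and 0.48 and 0.29 at 120 h, a difference of 0.24 ± 0.46 (adjusted p = 0.679), and its lowest point, -1.11 and -0.88, lay at 90 h. Egr1 (0.95 ± 0.23, adjusted p = 0.000911) and Jund (0.72 ± 0.21, adjusted p = 0.0049) were not called, although both of their 120 h libraries were above both 48 h libraries. Compared with 0 h, 6 of the 10 genes were higher at 120 h (Fos, Fosl2, Jun, Junb, Egr1 and Atf3) and none lower, with 23% of all genes called, 12.9% higher and 10.1% lower. Ier3 had returned to 3.57 and 3.88 at 120 h beside 3.73 and 3.84 at 0 h, a difference of -0.06 ± 0.24 (adjusted p = 0.862).

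At 108 h several of the genes stood above the ascent. The comparisons around 108 h were set with earlier results of these data known, and share libraries with one another. From 96 h to 108 h, 5 of the 10 were called, all higher (Fos, Fosl1, Fosl2, Junb and Egr1), where 6.99% of all genes were called, 3.85% higher and 3.13% lower, and the median change was 1.54 for the 10 genes and 0.00 for all genes.

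Egr1 was at 4.18 and 4.15 log2 CPM at 96 h, 5.06 and 5.08 at 102 h, 6.33 and 6.38 at 108 h, 4.81 and 4.89 at 114 h and 4.05 and 3.99 at 120 h. Both 108 h libraries were above every other library of the course, and the replicates differed by at most 0.08 at each of these times. Egr1 rose by 2.19 ± 0.23 from 96 h to 108 h (adjusted p = 4.27e-08) and fell by 2.33 ± 0.23 to 120 h (adjusted p = 3.47e-08). The step down from 108 h to 114 h was itself called (-1.51 ± 0.23, adjusted p = 4.4e-05).

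Fosl1 was at 0.16 and -0.55 log2 CPM at 102 h, 3.27 and 3.34 at 108 h, 1.67 and 1.64 at 114 h and 0.48 and 0.29 at 120 h. The 6 h step into 108 h was a rise of 3.50 ± 0.46 (adjusted p = 4.98e-06). At 96 h its duplicates were 2.80 apart on the log2 scale (-0.90 in replicate A with 18 reads, 1.90 in replicate B with 98 reads), the widest pair of any of the 10 genes. The rise from 96 h (2.81 ± 0.46, adjusted p = 3.54e-05) was lost without 96 h replicate A (1.41, adjusted p = 0.000828), without 108 h replicate A (0.000804) and without 108 h replicate B (0.00103). Its fall from 108 h to 120 h (-2.92 ± 0.46, adjusted p = 3.35e-05) was likewise lost without any 1 of the 4 libraries (adjusted p from 0.000637 to 0.00141) and with quantile normalization (0.000136).

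Fosl2 was at 4.80 and 4.68 log2 CPM at 102 h and 6.62 and 6.40 at 108 h (3354 and 2364 reads), and Junb at 5.82 and 5.83 and then 6.95 and 7.14. Both were higher at 108 h than at 102 h by the test (1.77 ± 0.25 and 1.22 ± 0.15, adjusted p = 1.27e-05 and 1.18e-06) and both had 108 h libraries above all others of the course. Junb fell by 1.29 ± 0.15 to 120 h (adjusted p = 2.68e-07), while the difference of Fosl2 from 108 h to 120 h, -1.08 ± 0.25, was not called (adjusted p = 0.00188).

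Fos (4.79 and 4.84 log2 CPM), Fosb (2.24 and 2.05) and Atf3 (4.86 and 4.79) also had their highest libraries at 108 h. For Fos the rise from 96 h, 1.65 ± 0.27 (adjusted p = 2.63e-05), was lost without 108 h replicate A (0.000638), without 108 h replicate B (0.000867) and without 96 h replicate B (1.06, adjusted p = 0.00284). Atf3 was not called in this comparison (1.43 ± 0.27, adjusted p = 0.0002), nor was Fosb (2.11 ± 0.50, adjusted p = 0.00194). Both were called with voom weights (adjusted p = 3.13e-06 and 6.18e-06) and on log2(CPM + 1) (2.81e-05 and 3.91e-07), which gave 7 calls in each case. The 96 h pair was wide for Fos (3.75 and 2.58), Atf3 (2.70 and 4.09), Ier3 (5.03 and 4.12) and Fosl1, and without 96 h replicate B the calls also took in Atf3 (2.12, adjusted p = 2.55e-07), Jun (0.99, adjusted p = 5.24e-05) and Ier3, then lower at 108 h (-1.61, adjusted p = 1.95e-05).

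Jun, Jund and Ier3 were not set apart at 108 h from their neighbouring times in both replicates. The mean of Jun was highest at 108 h by a small margin over 114 h. Jun was at 6.49 and 6.49 log2 CPM at 102 h, 6.91 and 6.80 at 108 h and 6.93 and 6.66 at 114 h. Jund was at 7.11 and 7.26 at 102 h, then 6.98 and 6.88, and then 7.10 and 6.99 at the same times, without a call between 96 h, 108 h and 120 h. Ier3 was at 4.78 and 4.93 at 84 h, its highest point by the mean, and at 3.64 and 2.96 at 102 h and 3.37 and 3.47 at 108 h. From 108 h to 120 h, 3 of the 10 genes were called, all lower (Fosl1, Junb and Egr1), against 4.12% of all genes in either direction, 2.39% higher and 1.73% lower. With voom weights this count was 6, and on log2(CPM + 1) it was 5, in each case with Fos and Fosl2 added.

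The high points of 6 h and 108 h were compared directly, in a contrast chosen after the values were seen. Of the 10 genes, 8 were higher at 108 h than at 6 h and none lower, against 33.4% of all genes called, 19.2% higher and 14.2% lower. Fosl2 was 3.30 ± 0.25 higher (adjusted p = 5.81e-12), Fos 2.95 ± 0.27 (1.95e-10) and Junb 2.83 ± 0.15 (1.93e-15). Fosl1 alone of the 10 had a negative difference, -1.78 ± 0.46, which was not called (adjusted p = 0.00155) but was called with voom weights (3.46e-08) and on log2(CPM + 1) (4.22e-06). Jund, 1.44 ± 0.21 higher (adjusted p = 1.28e-06), lost its call without 6 h replicate A (1.28, adjusted p = 0.00015).

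Step by step, the calls fell at few times. Over the 20 consecutive 6 h steps the 10 genes gave 15 calls in 4 steps, 7 from 0 h to 6 h, 4 from 6 h to 12 h, 3 from 102 h to 108 h and 1 from 108 h to 114 h. In the second of these steps Fos, Fosl2, Jun and Atf3 fell, where 4.35% of all genes were called, 1.47% higher and 2.88% lower. In the step into 108 h, 2.04% of all genes were called, 1.37% higher and 0.672% lower, and in the step out of it 1.72% were called, 0.986% higher and 0.734% lower. From 12 h to 102 h, and from 114 h to 120 h, none of the 10 was called in any of the 16 single steps by limma, where 0.0638% of the tests over all genes were past the threshold. Of the 160 tests of the 10 genes in these steps, 55 had an unadjusted p under 0.05. The share of all genes under that limit was not computed, so this count cannot be set against it. The adjustment was made within each step, so a step in which few genes changed needed a smaller unadjusted p for a call. With adjustment over all 27 contrasts together the 20 steps gave 18 calls, and Ier3 was called from 48 h to 54 h (1.39, adjusted p = 5.85e-05). The other alternatives fitted to all 42 libraries gave no call in the 16 steps named above.

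**Figure D3:**
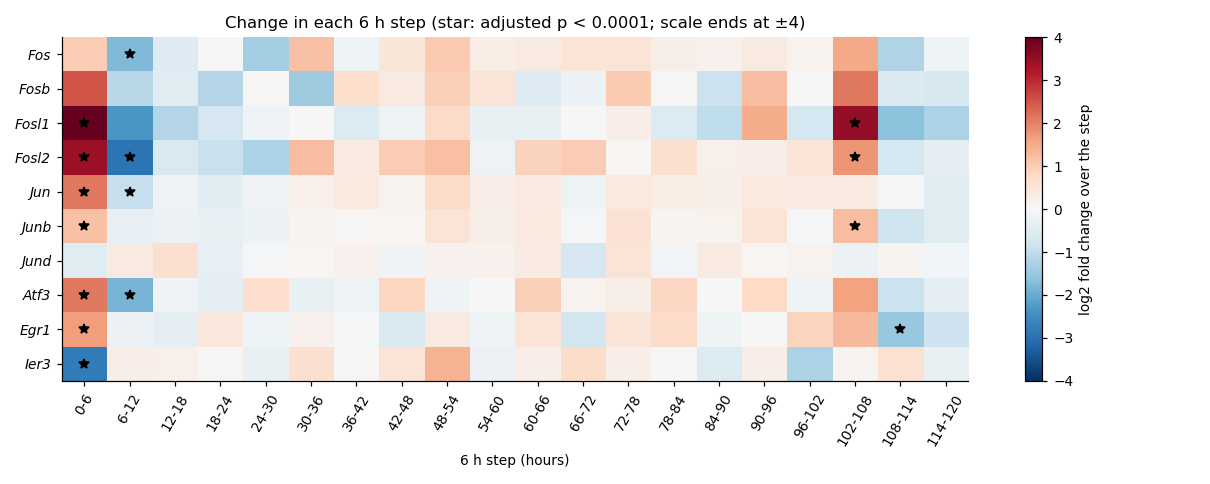
Log2 fold change of each of the 10 genes (rows) over each of the 20 steps of 6 h (columns), in red where the later time is higher and in blue where it is lower, with a star where the adjusted p is under 0.0001. The 15 stars lie in the steps ending at 6 h, 12 h, 108 h and 114 h.

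Neither 6 h nor 108 h is among the daily points of the course. Over the 21 time points the mean of Fosl1 spanned 6.08 on the log2 scale, and over the 6 daily ones (0, 24, 48, 72, 96 and 120 h) 0.94. For Egr1 the spans were 4.20 and 2.02, for Fos 6.64 and 3.90 and for Fosb 5.34 and 3.07. The peak stood above the highest daily mean by 4.16 for Fosl1, 2.18 for Egr1, 1.38 for Fos and 1.22 for Fosb. The low points of Fos at 30 h (8 and 2 reads) and of Fosb at 36 h (2 and 4 reads) also lay between daily points and widened the full span. Jun, with 4.32 and 3.81, and Ier3, with 3.88 and 3.08, were closer to the full span at the daily points.

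Levels of different genes can be set side by side once divided by exon length, here as CPM per kilobase of the merged exons of a gene, which understates genes with long, rarely used exons. At 0 h the order by the mean was Jund (37.5 CPM per kilobase), Ier3 (12.2), Junb (3.61), Jun (1.81), Egr1 (0.986), Fos (0.766), Fosl1 (0.474), Atf3 (0.409), Fosl2 (0.0867) and Fosb (0.0502). No neighbours overlapped at that time, but Fosl1 (0.458 and 0.490) and Atf3 (0.432 and 0.385) were close, and the last 2 rest on few reads. At 108 h the order was Jund (73.4), Junb (57.4), Jun (36.3), Egr1 (18.2), Atf3 (13.2), Fos (12.0), Fosl2 and Ier3 (9.44 each), Fosl1 (4.85) and Fosb (0.707). Fosl2 (10.1 and 8.73) and Ier3 (9.11 and 9.76) overlapped there, and the other neighbours did not.

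Within the Fos family the leading transcript changed. Fosl1 made up 35.1% and 33.8% of the family sum per kilobase at 0 h, 85.8% and 85.6% at 6 h, 17.3% and 18.7% at 108 h and 6.5% and 6.2% at 120 h. Fos was 55.2% and 56.0% of the sum at 0 h, 7.8% and 8.0% at 6 h and 42.9% and 45.9% at 108 h. Fosl2 was 7.0% and 5.6% at 0 h, 5.2% and 4.6% at 6 h, 37.0% and 32.9% at 108 h and 46.1% and 43.4% at 120 h. The family sum was thus of a like order at both high points, 19.7 and 19.3 CPM per kilobase at 6 h and 27.3 and 26.6 at 108 h, but mostly Fosl1 at the first and mostly Fos and Fosl2 at the second.

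In the Jun family Jund led throughout the times compared, with 87.0% and 87.7% of the sum at 0 h, 60.1% and 65.9% at 6 h, 84.5% and 82.7% at 48 h and 45.4% and 42.4% at 108 h. Junb was 8.8% and 8.0% at 0 h, 19.3% and 18.2% at 6 h and 32.1% and 36.7% at 108 h, and Jun 4.2% and 4.3%, 20.6% and 15.9%, and 22.5% and 20.9% at these times. The sum of the 3 Jun genes was 40.6 and 45.3 CPM per kilobase at 0 h, 40.3 and 45.7 at 6 h, and 167 in both replicates at 108 h. At 6 h the Jun family sum therefore overlapped that of 0 h while its make-up differed.

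**Figure D4:**
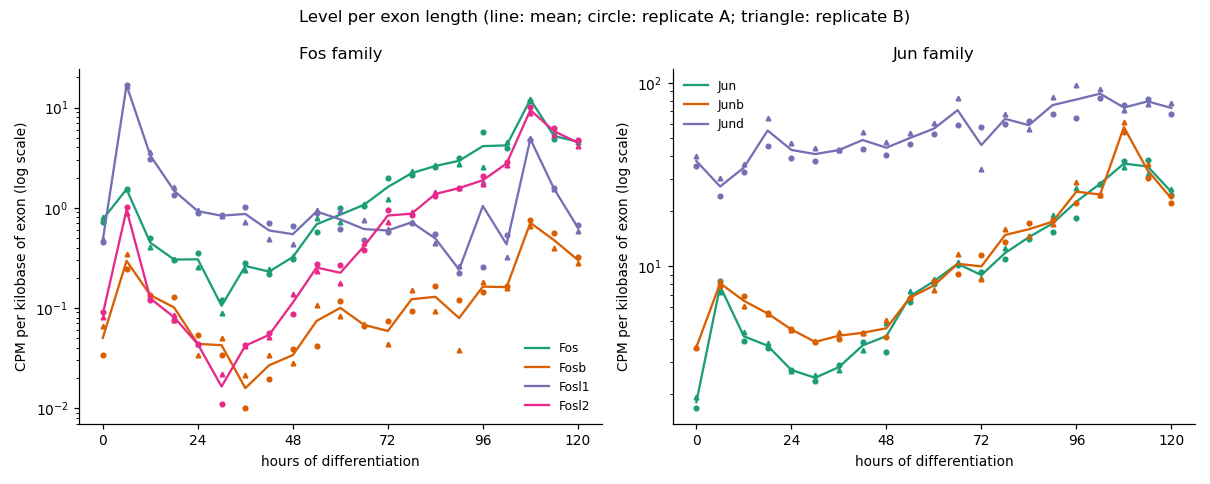
CPM per kilobase of exon (y axis, log scale) of the Fos family (left) and the Jun family (right) against hours of differentiation, with a line through the means, circles for replicate A and triangles for replicate B. Fosl1 is the highest Fos family gene at 6 h and Fos and Fosl2 are at 108 h, whereas Jund is the highest Jun family gene at both times.

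The courses of Fos, Fosl2, Jun, Junb and Atf3 ran alike, and those of the other 5 genes less so. As a description over the 21 means of the duplicates, which share libraries and a common ascent, Pearson's r was 0.98 for Fos with Fosl2, 0.97 for Jun with Junb and 0.97 for Atf3 with Junb, and at least 0.93 for every pair of the 5. For Fosl1 it was highest with Fosb (0.52) and Egr1 (0.28), and was 0.12 with Fosl2, 0.08 with Fos, 0.03 with Jun, -0.43 with Jund and -0.50 with Ier3. For Ier3 it was at most 0.68 with any other of the 10 (Fos) and 0.16 with Egr1. Egr1 reached 0.82 with Junb, Jund 0.79 with Jun, and Fosb 0.82 with Junb, beside 0.41 for Fosb with Jund.

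Among the 12799 other genes whose mean level reached 0 log2 CPM, those with courses most like each of the 10 were found by Pearson's r over the 21 time points. Zbtb10, a zinc finger gene, was closest to both Fosl2 (0.990) and Fos (0.978). Tagln, an actin-binding protein gene, was closest to Jun (0.985) and Ccn1, a matricellular immediate early gene, to Junb (0.982). For Atf3 the closest were Tubb6 (0.974), a tubulin gene, and Ccn1 (0.972). Dusp8 (0.981 with Jun) and Dusp1 (0.976 with Junb) encode phosphatases of MAP kinases. For Fosl1 the closest were Ddi2 (0.936) and Wdr1 (0.888), both highest at 6 h, for Fosb Sav1 (0.930) and Zbtb7b (0.925), for Egr1 Rassf3 (0.918) and Csrnp1 (0.890), and for Jund Trip6 (0.953) and Tmem88 (0.940). Ier3 was closest to P4ha2 (0.979) and Ddit4 (0.970), genes known to respond to hypoxia. In the separate replicates these values ranged down to 0.808 (Fosb with Sav1 in replicate B).

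The other genes of the pathway were taken in 4 lists: 39 other immediate early genes, 11 other bZIP partners of AP-1, 25 kinases and factors upstream, and 16 genes known as AP-1 targets. From 0 h to 6 h, 18 of the 39 immediate early genes rose and 3 fell, where 11.8% of all genes were higher and 14.5% lower, with a median change of 0.93 against -0.05 for all genes. Ptgs2, the inducible prostaglandin synthase, had 0 reads in both 0 h libraries and 78 and 42 reads at 6 h, at least 21-fold above the floor of 3 reads per library (adjusted p = 1.87e-09). Egr3, a relative of Egr1, had 1 and 0 reads at 0 h and 50 and 20 at 6 h (adjusted p = 2.35e-05). Hbegf, a growth factor of the EGF family, rose by 3.29 ± 0.20 (adjusted p = 3.97e-13). Those that fell were Gem (-2.14 ± 0.40), Ier5 (-1.26 ± 0.19) and the clock gene Per1 (-1.08 ± 0.17), alongside Ier3.

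Of the 16 AP-1 targets, 6 rose by 6 h and 1 fell, with a median of 0.70, beside the same shares of all genes. Plaur, the urokinase receptor, rose by 5.0 ± 0.23 (adjusted p = 1.26e-15) and the transcription factor gene Ets1 by 3.07 ± 0.19, whereas Vegfa fell by 2.36 ± 0.19. Among the 25 upstream genes 5 rose and 6 fell, with a median of 0.02, and 44% were called where 26.3% of all genes were. The risers were led by Srf, the factor that binds serum response elements (1.52 ± 0.15), and the genes that fell by Elk3 (-1.46 ± 0.16) and Mapk3 (-1.37 ± 0.14), the latter one of the ERK kinases. Of the 11 bZIP partners 2 rose, among them Mafg (0.66 ± 0.09), and none fell, with a median of 0.01.

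By 24 h, 14 of the 39 immediate early genes and 7 of the 16 targets were lower than at 6 h and none higher (medians -0.78 and -0.83), where 5.76% of all genes were lower and 5.64% higher. In the upstream list 1 of 25, or 4%, and in the bZIP list 3 of 11 were lower at that time. From 48 h to 120 h, 12 of the 16 targets rose and 2 fell (median 2.10), and 17 of the 39 immediate early genes rose and 5 fell (median 1.06), where 14.2% of all genes were higher and 11% lower. The target with the largest rise was Mmp9, a matrix protease (5.69 ± 0.22, adjusted p = 9.27e-18). Those that fell were the cyclin gene Ccnd1 (-1.60 ± 0.15) and Hmox1 (-0.87 ± 0.13).

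Ccn1 (6.18 ± 0.15), Gadd45b (5.54 ± 0.22) and Ccn2 (3.38 ± 0.17) led the other immediate early genes between 48 h and 120 h, and Myc (-2.88 ± 0.34), Sgk1 (-1.69 ± 0.13) and Zfp36l2 (-1.17 ± 0.14) fell. Among the bZIP partners 5 of 11 rose and Atf2 fell (-0.59 ± 0.11). Jdp2, which encodes a partner and repressor of Jun, had 5 and 4 reads at 48 h and 209 and 202 at 120 h (5.51 ± 0.40), and Maf had 1 and 3 reads at 48 h and 110 and 144 at 120 h (adjusted p = 3.83e-08), too few at 48 h to give a fold. In the upstream list 3 of 25 genes, or 12%, rose and none fell, a share near the 14.2% of all genes, namely Elk3 (2.54 ± 0.16), Mef2d (1.33 ± 0.13) and Mef2a (0.98 ± 0.15). From 96 h to 108 h, 16 of the 39 immediate early genes and 8 of the 16 targets were higher, and 2 and none of them were lower, where 3.85% of all genes were higher and 3.13% lower. From 108 h to 120 h, 12 of the 39 were lower and 1 was higher (median -0.72), and 1 of the 16 targets was lower and 1 higher (median 0.03), where 1.73% of all genes were lower and 2.39% higher.

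**Figure D5:**
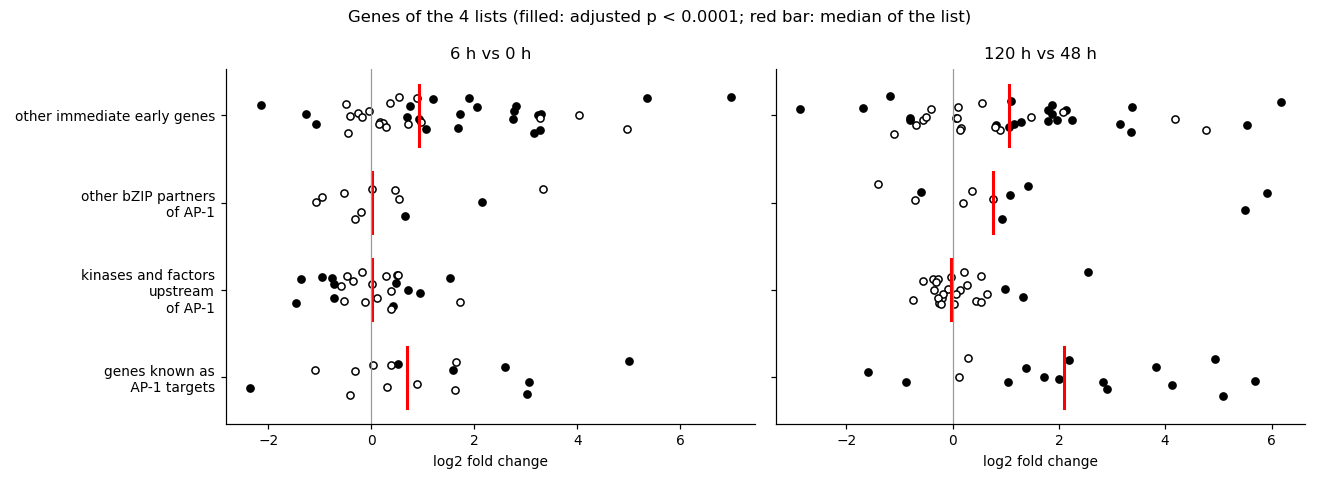
Log2 fold change of each gene of the 4 lists (x axis) from 0 h to 6 h (left) and from 48 h to 120 h (right), with filled circles for an adjusted p under 0.0001 and a red bar for the median of the list. The red bar of the AP-1 targets stands at 0.70 on the left and 2.10 on the right, and those of the upstream genes at 0.02 and -0.03. The points of Ptgs2, Egr2, Nr4a3 and Maf on the left are fitted against 0 reads and are no measure of fold. The same holds for points fitted against very few reads, among them Egr3 and Egr4 on the left and Egr3, Nr4a3 and Maf on the right.

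Markers of other cells moved over the same times, and their part in the results was not tested. Of 9 fibroblast markers, used because feeder cells can accompany ESCs, 7 were in the files, and their summed level was 46.5 and 49.2 CPM at 0 h, 15.6 and 14.9 at 6 h, 13.3 and 11.8 at 48 h, 35.1 and 35.5 at 108 h and 108 and 97.4 at 120 h. Among them Postn had 0 reads in 25 libraries, Col3a1 in 8, Dcn in 5 and Col1a2 in 3. The markers in this sum moved in different directions: from 0 h to 120 h the mean level of Thy1 went from 4.37 to 1.82 log2 CPM and that of Pdgfrb from 4.44 to 2.52, whereas Col1a1 went from 2.40 to 5.90 and Col1a2 from -3.25 to 4.66. Of 6 primitive endoderm markers 5 were in the files, none at 0 reads in any library, with sums of 9.23 and 9.05 CPM at 0 h, 14.7 and 14.8 at 6 h, 13.6 and 13.6 at 48 h, 40.9 and 41.2 at 108 h and 46.3 and 47.1 at 120 h. These markers also moved in different directions. From 6 h to 48 h the mean level of Dab2 went from 0.68 to 3.45 log2 CPM. Over the same time Sox7 went from 3.07 to -2.29, Gata6 from 0.01 to -3.88, Pdgfra from 0.74 to -1.25 and Gata4 from 1.08 to 1.04. Of 5 blood markers only Laptm5 was in the files, at 167 and 153 CPM at 0 h, 294 and 299 at 6 h, 21 and 18.8 at 48 h, 7.88 and 8.58 at 108 h and 19.7 and 24.4 at 120 h. At 96 h, where several of the 10 genes had wide pairs, the replicates also differed in these sums, with 29.3 and 17.6 CPM for the fibroblast list, 31 and 46.7 for primitive endoderm, 6.24 and 18.4 for Laptm5 and 1.72e+03 and 2.34e+03 for the pluripotency markers.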

How the data were processed

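Reads were trimmed with Trim Galore, aligned to mm10 with TopHat2 and counted on GENCODE vM2 genes with HTSeq by the authors, who normalized them with edgeR and transformed them with voom (versions not given in the sources used here). The values deposited by the authors are log2 CPM with an offset of 0.5 reads, for 14296 genes in each library, and the reads behind each value were recovered as whole numbers (largest distance 2.91e-08). The authors' filter on low genes came before deposit. A level of 3 reads was 0.0571 to 0.316 CPM, which covers counting error only. Genes were matched to GENCODE vM21 (GRCm38, the same build as mm10; 14177 matched, 119 not), which gave symbols, coordinates and exon lengths.

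The log2 values were fitted with limma 3.58.1 in R 4.3.3 (lmFit and eBayes with a trend) on a factor of 21 time points over all 42 samples, with no block and 21 residual degrees of freedom. Two-sided p-values were adjusted by Benjamini-Hochberg over all 14296 genes in each contrast, and an adjusted p below 0.0001 was called. Alternatives were a replicate block, voom weights on the recovered reads, quantile normalization, log2(CPM + 1), a filter at a mean of 0 log2 CPM, eBayes without a trend, adjustment over all contrasts together and leaving out each library. The fit was tested on simulated data. Members, lists and contrasts were chosen with earlier results of these data known. All 10 members are named. From each list, up to 3 genes per direction with the largest called change of the same sign in both replicates are named for 6 h vs 0 h and 120 h vs 48 h, and for each member the 2 genes with the highest r. Batf, Nrl, Mmp3, Mmp10, Mmp13 and Il6 of the lists were not analysed here, and some genes that the rule names are not reported here. Figures were drawn with matplotlib 3.10.9.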

Additional observations from a re-analysis of the deposited data

How the results depend on the processing

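The counts of members called kept within 1.5 times their main value under every alternative except as follows. From 108 h to 120 h, where 3 were called, 6 were called with voom weights and 5 on log2(CPM + 1). Leaving out single libraries gave 1 in place of 2 for 48 h vs 0 h, and 3 to 7 in place of 5 for 108 h vs 96 h. Of the values of single members, 798 under the alternatives kept direction and call, 26 gained a call, 38 lost one and 10 changed sign. None of the values that changed sign had been called, and the cause was not tested. They were Fosl1 from 48 h to 120 h (-0.27 with quantile normalization and -0.04 to 0.53 without single libraries), Jund from 108 h to 120 h (0.11 and -0.11 to 0.09), and, without single libraries, Fosl1 (-0.12 to 0.45) and Fosl2 (-0.01 to 0.67) from 0 h to 48 h, Ier3 from 0 h to 120 h (-0.21 to 0.10) and Jund from 96 h to 108 h (-0.42 to 0.18). A leave-out fit takes the lone library to vary like the other time points. The filter on low means removed Fosb.

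The letters A and B name 2 courses, and nothing in the labels says that a letter marks a shared batch or day, so the samples were not taken as paired. Over 210 pairs of time points, the residuals of same-letter libraries correlated between -0.474 and 0.598, by 0.080 on average, and 47.1% of these correlations were over 0.1. With the replicate block the counts of members were unchanged except for 120 h vs 0 h, where Jund was added (0.96, adjusted p = 8.02e-05) and 7 were called. Depth limited Fosb, with 2 reads in its lowest library, and the low points of Fos and Fosl2 at 30 h.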
